A study of Mus musculus with 60 samples.

Results

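A set of 8 genes of the bone morphogenetic protein (BMP) pathway was followed through a switch of mouse embryonic stem cells into 2i medium: the ligands Bmp4 and Bmp7, the receptor Bmpr1a, the inhibitors Smad6 and Bambi, and the target genes Id1, Id2 and Id3. They were taken by symbol from the deposited count table, 8 of its 50559 genes, and their levels were read in all 20 groups of cell line and time. All 8 passed the filter on low counts, which left 15083 genes for testing. The cells were 1A wild type, V19 wild type, a 1A line with an Ezh2 knockout and a 1A line with an Eed knockout. Both knockouts were made with Cas9, remove a core subunit of Polycomb repressive complex 2 (PRC2) and are represented by 1 line each, so a difference between knockout and wild type cannot be told apart from a difference between those lines. Each line was sampled at 0 h, in serum with leukaemia inhibitory factor (LIF), and after 12, 24, 48 and 96 h with 3 µM CHIR99021, a GSK3 inhibitor, and 1 µM PD0325901, a MEK inhibitor, added to that medium (together called 2i). Each of the 20 groups held 3 libraries, labelled as biological replicates, which gave 60 libraries in all.

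BMP ligands bind a complex of type I receptors, such as Bmpr1a, and type II receptors, which phosphorylates SMAD1 and SMAD5. With SMAD4 these activate target genes, among them the Id genes and the feedback inhibitor Smad6. Id proteins bind E proteins, a class of basic helix-loop-helix transcription factors, and keep them off DNA. In mouse embryonic stem cells, BMP4 or serum together with LIF sustains self-renewal, and induction of Id genes is a known part of BMP4 in this. In 2i the inhibition of MEK and GSK3 takes over that role.

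Poly(A) RNA was sequenced, and levels are given as CPM, the count of a gene scaled to a fixed library total. Total counts ranged from 2561169 to 11065948 per library with a median of 6055990. Ezh2 lay between 14.5 and 19.9 CPM in the 15 libraries of its knockout and between 194 and 278 CPM in 1A wild type. Eed lay between 15.3 and 28.2 CPM in its knockout and between 246 and 393 CPM in 1A wild type, so both follow the labels. All 8 embryonic stem cell markers had counts in every group. Replicates lay close together in most groups (median root mean square deviation 0.137 on the log2 scale), and 7 libraries deviated by more than 1.5 times that value: V19 wild type 48 h replicates 2 and 3, Eed knockout 12 h replicates 1 and 3, 1A wild type 24 h replicate 1, 1A wild type 48 h replicate 3 and Ezh2 knockout 12 h replicate 3. Differences are log2 fold changes ± standard error (SE) from edgeR's quasi-likelihood test, and a gene was called where its p, adjusted by Benjamini-Hochberg over the 15083 genes, was under 0.05.

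Promoter sequences are given for Bmp4, Id2, Id3 and Smad6 because their levels move with time or with a knockout below. A promoter here is the 250 bases before and 50 bases after the start site in RefSeq (mouse GRCm38.p6). Promoters of 5 of the 8 genes could be shown from that table (these 4 and Bmpr1a), and Id1, Bmp7 and Bambi are named only. The Bmp4 promoter lies at chr14:46390620-46390919, minus strand, the Id2 promoter at chr12:25096043-25096342, minus strand, the Id3 promoter at chr4:136143572-136143871, plus strand and the Smad6 promoter at chr9:64022010-64022309, minus strand. Each is printed 5′ to 3′ on the strand of its gene, with matches to GGCGCC or GGAGCC on either strand in capitals (GGCTCC is GGAGCC read on the other strand). These are GC-rich elements of the kind SMAD1 and SMAD5 bind.
Bmp4: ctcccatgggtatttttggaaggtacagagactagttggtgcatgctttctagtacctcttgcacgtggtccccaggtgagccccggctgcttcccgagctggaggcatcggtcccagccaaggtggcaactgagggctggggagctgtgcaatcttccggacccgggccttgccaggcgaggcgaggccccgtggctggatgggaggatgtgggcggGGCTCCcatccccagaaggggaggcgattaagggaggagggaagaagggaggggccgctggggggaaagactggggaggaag
Id2: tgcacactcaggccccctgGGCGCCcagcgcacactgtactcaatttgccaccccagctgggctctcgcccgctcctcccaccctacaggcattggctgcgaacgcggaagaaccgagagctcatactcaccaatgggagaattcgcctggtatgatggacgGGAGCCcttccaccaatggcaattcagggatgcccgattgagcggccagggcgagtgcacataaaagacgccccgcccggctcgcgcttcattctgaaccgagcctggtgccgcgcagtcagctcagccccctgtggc
Id3: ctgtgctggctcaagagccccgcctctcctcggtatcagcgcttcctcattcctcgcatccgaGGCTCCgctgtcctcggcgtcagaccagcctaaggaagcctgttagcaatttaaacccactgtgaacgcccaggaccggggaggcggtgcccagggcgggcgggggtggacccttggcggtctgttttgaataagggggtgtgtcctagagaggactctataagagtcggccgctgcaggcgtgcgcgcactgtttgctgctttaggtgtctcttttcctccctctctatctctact
Smad6: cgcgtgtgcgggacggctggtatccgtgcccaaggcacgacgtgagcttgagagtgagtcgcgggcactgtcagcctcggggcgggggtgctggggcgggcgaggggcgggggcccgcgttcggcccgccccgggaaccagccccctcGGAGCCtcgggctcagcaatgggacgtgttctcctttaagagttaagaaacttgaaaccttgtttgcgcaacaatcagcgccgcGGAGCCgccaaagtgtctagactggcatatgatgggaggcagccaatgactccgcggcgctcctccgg
Smad6 held 2 matches to GGAGCC, starting 102 and 18 bases before the start site. Id2 held GGCGCC 231 bases and GGAGCC 88 bases before it, Id3 held GGAGCC 187 bases before it, and Bmp4 held GGAGCC 32 bases before it. Bmpr1a held GGCGCC 198 bases before its start site. Of the 32851 promoters in the table, 37.1% held at least 1 of the 2 motifs (GGCGCC 11.9%, GGAGCC 30.8%), so a match is common. CCGGAAG, an ETS core motif, was found in Bmp4 only, 96 bases before the start site, against 8.86% of all promoters. CTTTGA, a TCF/LEF core motif, was in none of the 5 and in 16% of all promoters. A match describes these letters and does not show binding.

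Some of the 8 genes changed in every line within 12 h of 2i, and Bmp4 and Bmp7 changed in every line at every time. In 1A wild type 3 of the 8 were called by 12 h (1 higher and 2 lower) against 40.8% of all tested genes (20% higher and 20.8% lower). The count was 4 at 24 h (1 higher and 3 lower, all genes 46.4%, 24% higher and 22.4% lower), 4 at 48 h (1 and 3, all genes 53%, 26.8% higher and 26.2% lower) and 6 at 96 h (3 and 3, all genes 48.6%, 25.1% higher and 23.5% lower). In that line the share of the 8 was near that of all genes up to 48 h.

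V19 wild type had 4 calls at 12 h (2 higher and 2 lower, all genes 42.3%, 21.5% higher and 20.8% lower) and 6 at 24 h (3 and 3, all genes 40.4%, 21% higher and 19.4% lower). It had 6 at 48 h (3 and 3, all genes 50.8%, 26.7% higher and 24.2% lower) and 7 at 96 h (3 and 4, all genes 47.5%, 24.8% higher and 22.7% lower). For the Ezh2 knockout the count was 7 at every time. These were 3 higher and 4 lower at 12 h (all genes 50.1%, 26.2% higher and 23.9% lower), 24 h (all genes 46.7%, 24.5% higher and 22.2% lower) and 48 h (all genes 49.1%, 25.1% higher and 24% lower), and 4 higher and 3 lower at 96 h (all genes 42.8%, 22.2% higher and 20.7% lower). For the Eed knockout it was 5 at 12 h (2 higher and 3 lower, all genes 50.3%, 25.2% higher and 25.2% lower) and 8 at 24 h (3 and 5, all genes 41.1%, 23.4% higher and 17.7% lower). It was 8 at 48 h (3 and 5, all genes 49.2%, 28.1% higher and 21.1% lower) and 7 at 96 h (2 and 5, all genes 39.7%, 23.3% higher and 16.4% lower).

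The ligand Bmp4 was nearly lost within 12 h in all 4 lines and returned in part by 96 h. Bmp4 (chromosome 14, 46620982 to 46628126 in GRCm39, minus strand) stood at 43.96, 49.2 and 47.05 CPM in 1A wild type at 0 h (3 libraries) and at 1.89, 2.08 and 2.24 CPM at 12 h. It then reached 4.57, 3.76 and 3.99 CPM at 24 h, 4.11, 3.25 and 2.91 CPM at 48 h and 8.60, 10.1 and 9.36 CPM at 96 h. Every library at 12, 24 and 48 h lay below every library at 96 h, which in turn lay below every library at 0 h. The 12 h mean was 4.43% of the 0 h mean and the 96 h mean 20.02% (log2 fold changes -4.49 ± 0.18 and -2.32 ± 0.14, adjusted p = 8.1e-27 and 4.2e-20). In V19 wild type, Bmp4 went from 58.4, 54.7 and 55.1 CPM at 0 h to 2.04, 3.55 and 2.10 CPM at 12 h and 11.7, 11.8 and 11.4 CPM at 96 h, so the partial return was seen in both wild types. The annotation has 84 bases (4.1% of the exon length of Bmp4) in common with Gm15217 on the opposite strand, and reads there cannot be assigned to either gene by a count without strand.

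Bmp4 was called lower in all 16 comparisons of a 2i time with 0 h of the same line. Across those 16, 16.4% to 26.2% of the tested genes were called lower and 20% to 28.1% higher. Bmp7 was called higher in the same 16. Both ligands kept these calls when any 1 library of the comparison was left out, and in the values that the authors normalized by RUV (removal of unwanted variation) and deposited beside the counts. The exception was Bmp7 in the Eed knockout at 12 h, whose call ended (log2 fold change 0.60, adjusted p = 0.083) when the 7 deviating libraries were all left out.

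Bmp7 took the opposite course to Bmp4, from a low level to its highest mean at 48 h in both wild types and the Ezh2 knockout. Bmp7 (chromosome 2, 172709805 to 172782114, minus strand) stood at 1.18, 1.31 and 2.03 CPM at 0 h in 1A wild type, 4.42, 5.93 and 6.51 CPM at 12 h, 10.8, 9.76 and 10.8 CPM at 48 h and 4.62, 5.53 and 6.06 CPM at 96 h. All libraries at each 2i time lay above all libraries at 0 h (48 h against 0 h, 2.84 ± 0.26, adjusted p = 2.7e-13). The peak was 17.5, 13.7 and 15.8 CPM in V19 wild type and 16.1, 16.3 and 14.1 CPM in the Ezh2 knockout, above every 48 h library of the Eed knockout (10.8, 8.77 and 7.89 CPM). The Eed knockout was already at 4.41, 3.66 and 5.23 CPM at 0 h. Over the 20 group means of log2 CPM the correlation of Bmp7 with Bmp4 was -0.874, a description over groups that come from 4 lines and 5 times. Per kilobase of exon, Bmp4 exceeded Bmp7 at 0 h in 1A wild type (22.7 ± 1.27 against 0.411 ± 0.125 CPM per kb, mean ± SD, n = 3).

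**Figure D1:**
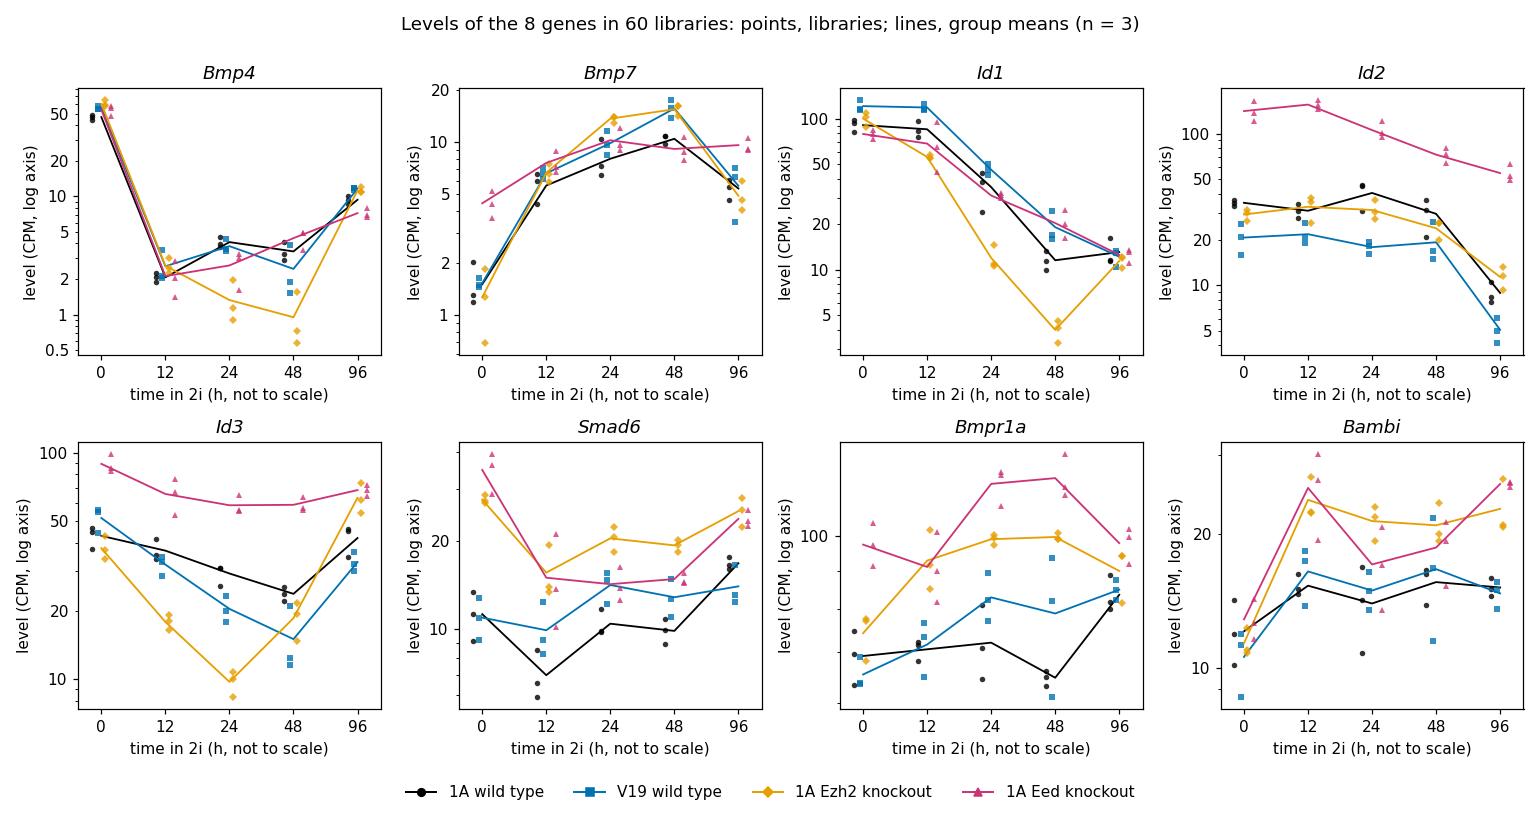
Level of each of the 8 genes (CPM, log axis with its own range in each panel) against time in 2i, with 1 point per library and lines through the means of the 3 libraries of each line and time. Bmp4 drops between 0 and 12 h in every line while Bmp7 rises, Id1 falls between 12 and 48 h, and the Eed knockout lies above the other lines for Id2 at every time.

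The type I receptor Bmpr1a moved little. Bmpr1a (chromosome 14, 34133018 to 34225335, minus strand) stood at 69.6, 74.8 and 63.3 CPM at 0 h in 1A wild type and at 63.2, 64.9 and 66.1 CPM at 48 h, ranges that overlap. Over all 60 libraries it lay between 61.0 and 129 CPM, and it was called higher in 10 of the 16 comparisons with 0 h. The call ended when 1 library was left out in 5 of these 10: in 1A wild type at 96 h without 0 h replicate 3 or 96 h replicate 1 (0.21 and 0.22), in V19 wild type at 48 h without 0 h replicate 1, 48 h replicate 1 or 48 h replicate 3 (0.27, 0.27 and 0.15), in the Ezh2 knockout at 96 h without 0 h replicate 1, 96 h replicate 2 or 96 h replicate 3 (0.21, 0.24 and 0.24), and in the Eed knockout at 24 h without 0 h replicate 1, 24 h replicate 1 or 24 h replicate 2 (0.23, 0.24 and 0.25) and at 48 h without 48 h replicate 1 (0.24). In the RUV-normalized values the V19 call at 48 h (0.18) and the Ezh2 knockout call at 96 h (0.20) ended. The Eed knockout calls at 24 and 48 h ended there too (0.13 and 0.056). With no filter the 96 h calls in 1A wild type and the Ezh2 knockout (0.26 each) and the V19 call at 48 h (0.28) ended. With only the groups compared, the V19 call at 48 h (0.28) and the Eed knockout call at 24 h (0.24) ended. The latter also ended at a mean of at least 1 CPM (0.21). The largest of the 10 called changes was in the Ezh2 knockout at 48 h, where its level was 99.1, 99.1 and 101 CPM against 68.1, 77.6 and 77.1 CPM at 0 h (0.42 ± 0.09, adjusted p = 1.7e-04).

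The inhibitors Smad6 and Bambi differed from each other. Smad6, an inhibitory SMAD that blocks receptor signalling, dipped at 12 h and was highest at 96 h in 1A wild type. Smad6 (chromosome 9, 63860358 to 63929374, minus strand) stood at 11.2, 13.4 and 9.15 CPM at 0 h, 8.52, 6.57 and 5.90 CPM at 12 h and 16.1, 16.6 and 17.6 CPM at 96 h. The 3 groups of libraries did not overlap. The 12 h difference was -0.70 ± 0.20 (adjusted p = 0.0047), and its call ended without 1A wild type 0 h replicate 2 (-0.56, adjusted p = 0.053). The 96 h difference was 0.55 ± 0.18 (adjusted p = 0.0092), and its call ended without 1A wild type 0 h replicate 3 (0.44, adjusted p = 0.056). In V19 wild type no Smad6 difference from 0 h was called at any time. In the Eed knockout Smad6 fell at all 4 times, from 39.4, 36.2 and 28.7 CPM at 0 h to 16.3, 12.6 and 13.8 CPM at 24 h (-1.27 ± 0.15, adjusted p = 6.2e-10).

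Bambi encodes a membrane pseudoreceptor that lacks a kinase domain and takes BMP receptors out of action. It stood at 14.2, 11.9 and 10.2 CPM at 0 h in 1A wild type and at 14.5, 15.1 and 15.97 CPM at 96 h, and was called at no time in that line (0.30 ± 0.18 at 96 h, adjusted p = 0.17). It was called higher at all 4 times in the other 3 lines, 12 of 16 comparisons in all. Of these 12 calls, 5 ended when 1 library was left out: in V19 wild type at 24 h without 0 h replicate 1, 24 h replicate 1 or 24 h replicate 2 (0.36, 0.50 and 0.45), at 48 h without 0 h replicate 1 or 48 h replicate 2 (0.48 and 0.43) and at 96 h without 0 h replicate 1, 96 h replicate 2 or 96 h replicate 3 (0.34, 0.44 and 0.47). For the Eed knockout the 24 h call ended without replicate 1 or 3 of 0 h or of 24 h (values between 0.27 and 0.41) and the 48 h call without 48 h replicate 1 (0.45). That 24 h call also ended with RLE size factors, DESeq2, a mean of at least 1 CPM and only the groups compared (values between 0.34 and 0.39). In the RUV-normalized values the Eed knockout calls at 24 and 48 h (0.27 and 0.31) and the V19 calls at 24 and 96 h (0.42 and 0.39) ended. The highest estimate was in the Ezh2 knockout, from 11.01, 12.3 and 10.8 CPM at 0 h to 26.9, 22.3 and 22.4 CPM at 12 h with no overlap (1.06 ± 0.16, adjusted p = 1.6e-07). The difference of that 12 h response from the response of 1A wild type was 0.75 ± 0.24 and was not called (adjusted p = 0.076).

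The target genes Id1, Id2 and Id3 fell at different times and to different depths. Id1 held its level for 12 h in both wild types and then fell to a small part of it. Id1 (chromosome 2, 152578171 to 152579330, plus strand) stood at 93.6, 97.7 and 81.4 CPM at 0 h in 1A wild type and 76.4, 83.4 and 96.2 CPM at 12 h. Later it stood at 23.98, 38.4 and 43.5 CPM at 24 h, 9.94, 11.4 and 13.3 CPM at 48 h and 11.5, 16.2 and 11.6 CPM at 96 h. The libraries at 0 and 12 h overlapped (-0.10 ± 0.15, adjusted p = 0.64), while every library at 24 h and later lay below them. At 48 h the mean was 12.7% of that at 0 h (-3.02 ± 0.20, adjusted p = 1.3e-18). V19 wild type stood at 116, 133 and 115 CPM at 0 h, 114, 126 and 117 CPM at 12 h and 17.003, 24.4 and 15.99 CPM at 48 h, the same order of times. So in both wild types the level of Bmp4 was already down at 12 h, when that of Id1 was not. Id1 was called lower in 13 of the 16 comparisons with 0 h, and the 3 without a call were at 12 h in both wild types and in the Eed knockout. The Eed knockout libraries at 12 h spread widely, at 96.04, 65.04 and 44.7 CPM, and without replicate 1 the difference was called (-0.54, adjusted p = 0.0037).

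Id2 held its level longer. Id2 (chromosome 12, 25143798 to 25146091, minus strand) stood at 34.6, 33.5 and 36.6 CPM at 0 h in 1A wild type, 31.2, 36.6 and 20.8 CPM at 48 h and 7.80, 8.39 and 10.5 CPM at 96 h. Its 96 h libraries lay below all others of the line (-1.97 ± 0.21, adjusted p = 1.1e-11), and the differences at 12, 24 and 48 h were not called (-0.17, 0.21 and -0.18). The 48 h difference was called in the authors' RUV-normalized values (-0.51, adjusted p = 0.032 by limma), and the 24 h difference, upward, without the 7 deviating libraries (0.39, adjusted p = 0.025). At 96 h Id2 was at 25.4% of its 0 h level in 1A wild type, 24.6% in V19 wild type, 38.7% in the Ezh2 knockout and 38.98% in the Eed knockout, and was called lower in all 4 lines. Earlier calls in the counts were in the Eed knockout, at 24 h (-0.42 ± 0.14, adjusted p = 0.015) and 48 h (-0.95 ± 0.15, adjusted p = 4.5e-07), and the 24 h call ended without 0 h replicate 2, 24 h replicate 1 or 24 h replicate 2 (-0.30, -0.35 and -0.39). In the Ezh2 knockout Id2 was -0.32 ± 0.18 at 48 h (adjusted p = 0.13), called in the RUV-normalized values (-0.69, adjusted p = 0.0045 by limma) and with only the 2 groups in the edgeR model (-0.33, adjusted p = 0.0093).

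Id3 dipped and came back. Id3 (chromosome 4, 135871133 to 135872703, plus strand) stood at 44.7, 46.4 and 37.4 CPM at 0 h in 1A wild type, 25.5, 21.97 and 23.7 CPM at 48 h and 34.7, 45.8 and 45.2 CPM at 96 h. The 48 h libraries lay below the others (-0.86 ± 0.15, adjusted p = 5.8e-06), and the 96 h libraries overlapped those at 0 h (-0.05 ± 0.14, adjusted p = 0.81). V19 wild type went from 43.9, 54.3 and 55.8 CPM at 0 h to 12.4, 20.98 and 11.5 CPM at 48 h and 29.9, 32.1 and 36.4 CPM at 96 h, and there the 96 h libraries stayed below all those at 0 h (-0.64 ± 0.14, adjusted p = 2.5e-04). Id3 was called lower in 13 of the 16 comparisons with 0 h and higher in 1, the Ezh2 knockout at 96 h. For the Eed knockout the 12 h call ended without 12 h replicate 3 (-0.32) and the 96 h call without 0 h replicate 2 or 96 h replicate 3 (-0.31 and -0.35).

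**Figure D2:**
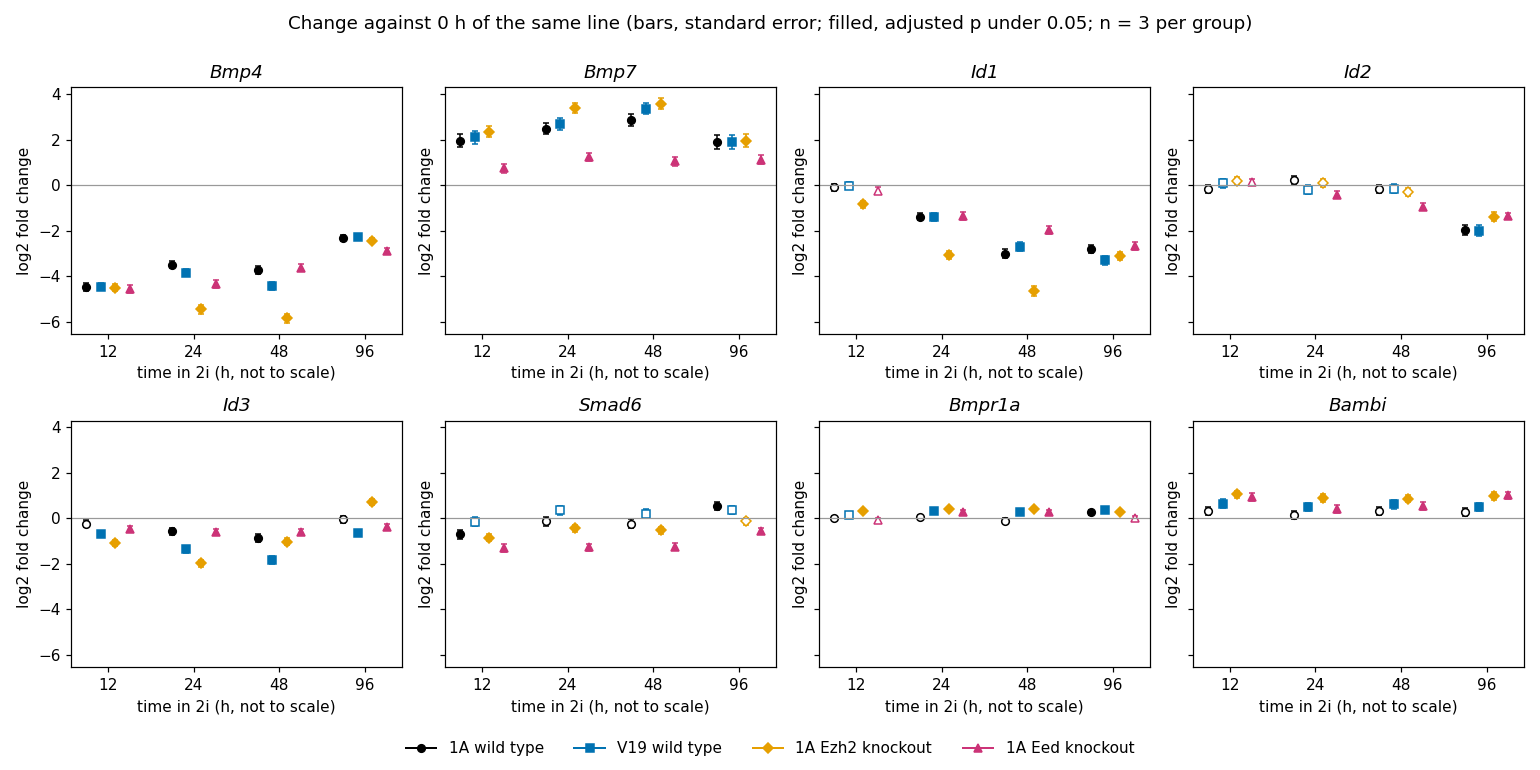
Log2 fold change of each gene against 0 h of the same line (vertical axis, 1 scale for all panels) at 12, 24, 48 and 96 h, with SE bars and filled symbols for an adjusted p under 0.05. Bmp4 lies below 0 and Bmp7 above 0 in all 16 comparisons, and the Ezh2 knockout lies lowest for Bmp4, Id1 and Id3 at 24 h.

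The make-up of the Id family changed with time in all lines. Levels per kilobase of exon allow the genes to be set beside each other, and the sum of Id1, Id2, Id3 and Id4 was 152 ± 11.1 CPM per kb at 0 h in 1A wild type (mean ± SD, n = 3), 61.3 ± 4.32 at 48 h and 64.8 ± 9.12 at 96 h. Id1 made up 51.6% ± 1.07 of that sum at 0 h and 17.4% ± 2.57 at 96 h. Id3 made up 29.6% ± 1.197 at 0 h and 67.7% ± 1.25 at 96 h, when it was the largest share in all 4 lines. In the Eed knockout Id2 was the largest share at 0 h (40.3% ± 1.72), and its sum was 274 ± 29.9 CPM per kb at 0 h and 127 ± 9.65 at 96 h. Id4, the fourth member, rose in 1A wild type from 3.24 to 8.78 CPM at 12 h (1.43 ± 0.26, adjusted p = 1.1e-05), while no other Id gene was called in that comparison, and reached 5.31% ± 1.52 of the sum at 48 h.

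**Figure D3:**
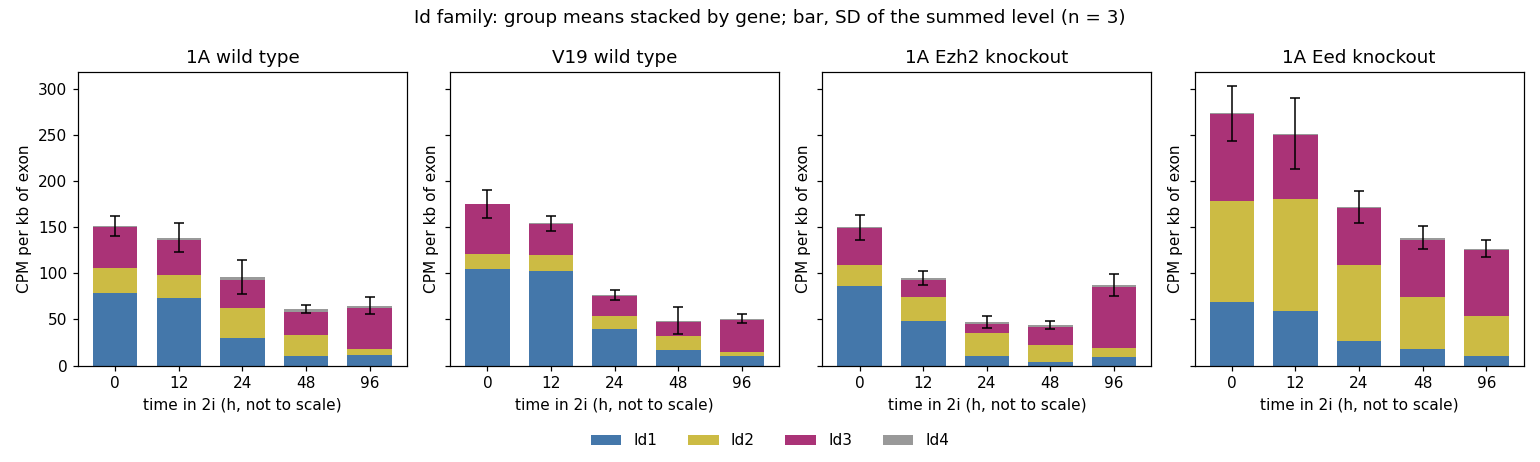
Stacked bars of the mean level of Id1, Id2, Id3 and Id4 (CPM per kilobase of exon) against time in 2i in the 4 lines, with the SD of the summed level over 3 libraries. The sum falls between 0 and 48 h in each line, Id1 is the largest segment at 0 h in both wild types and the Ezh2 knockout, Id3 is the largest at 96 h in all 4 lines, and the Eed knockout has the tallest bar at every time.

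The Ezh2 knockout stood lower than 1A wild type in Bmp4, Id1 and Id3 at 24 h. At 0 h 2 of the 8 genes were called, both higher, against 22.8% of all tested genes (11.9% higher). The counts were 5 at 12 h against 25.2%, 7 at 24 h (4 higher and 3 lower) against 29.3%, 6 at 48 h against 32.2% and 3 at 96 h against 13.2%. Id1 stood at 10.6, 14.5 and 10.8 CPM at 24 h in the knockout and 23.98, 38.4 and 43.5 CPM in 1A wild type, without overlap (-1.55 ± 0.19, adjusted p = 9.7e-09). At 48 h Id1 was at 4.57, 4.13 and 3.25 CPM, the lowest of all 20 groups (-1.48 ± 0.29, adjusted p = 7.3e-05), and at 96 h it overlapped the 1A wild type libraries at 11.9, 10.2 and 12.1 CPM (-0.18 ± 0.22, adjusted p = 0.66).

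Id3 and Bmp4 were lower in the Ezh2 knockout at 24 h as well. Id3 stood at 8.30, 10.7 and 10.02 CPM at 24 h against 25.8, 31.01 and 30.8 CPM in 1A wild type (-1.59 ± 0.17, adjusted p = 1.9e-10). It then climbed to 73.7, 61.5 and 54.1 CPM at 96 h, above every 1A wild type library of that time (0.59 ± 0.14, adjusted p = 0.0017). Bmp4 stood at 1.96, 0.895 and 1.13 CPM at 24 h and 0.732, 1.55 and 0.573 CPM at 48 h, below every 1A wild type library of the same time (-1.59 ± 0.28 and -1.77 ± 0.33, adjusted p = 1.3e-05 and 3.6e-05). At 96 h Bmp4 was at 11.9, 10.9 and 10.8 CPM, a difference that was not called (0.26 ± 0.16, adjusted p = 0.30). The 24 h calls of Id1, Id3 and Bmp4 were kept without any 1 library, without the deviating libraries and in the RUV-normalized values (-1.48, -1.71 and -1.45).

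The inhibitor Smad6 was higher in the Ezh2 knockout at all 5 times. At 0 h it stood at 28.5, 27.3 and 26.8 CPM against 11.2, 13.4 and 9.15 CPM in 1A wild type, with no overlap (1.26 ± 0.17, adjusted p = 2.3e-08). At 96 h the difference was 0.59 ± 0.16 (adjusted p = 0.0073, but 0.061 in the RUV-normalized values by limma). Bmp4 was also higher at 0 h, at 64.8, 59.5 and 57.5 CPM (0.38 ± 0.11, adjusted p = 0.0091). That call ended without Ezh2 knockout 0 h replicate 1 (0.32), without 1A wild type 0 h replicate 1 (0.33) and in the RUV-normalized values (0.40). Bmp7 was higher at 24 h, at 12.98, 13.97 and 14.1 CPM against 10.4, 6.42 and 7.25 CPM (0.75 ± 0.17, adjusted p = 4.2e-04). No difference of Id2 was called at any time with all libraries in edgeR's model (-0.25, 0.11, -0.37, -0.39 and 0.33), but the 24 and 48 h differences depend on the setting. They were called lower without the deviating libraries (-0.56 and -0.55) and in the RUV-normalized values (-0.61 and -0.58). With 1 library left out, the 24 h difference was called without 1A wild type replicate 1 or Ezh2 knockout replicate 2 (-0.54 and -0.48) and the 48 h difference without 1A wild type replicate 3 (-0.54). With only the 2 groups in the model it was called at 0 h and 48 h (-0.26 and -0.42), and with no filter at 24 h (-0.37).

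The receptor Bmpr1a and the inhibitor Bambi were higher in the Ezh2 knockout during 2i. Bambi was called at 12, 24, 48 and 96 h (0.64, 0.63, 0.44 and 0.58) and stood at 19.3, 21.8 and 22.95 CPM at 24 h against 10.8, 14.3 and 16.8 CPM in 1A wild type. Its 48 h call ended without replicate 1 or 2 of the knockout or any replicate of 1A wild type (values between 0.34 and 0.49), and its 96 h call without knockout replicate 1 (0.46) or 1A wild type replicate 1 (0.55). The 48 h call of Bambi also ended with RLE size factors (0.42), DESeq2 (0.42) and the RUV-normalized values (0.33). Its 96 h call ended in the RUV-normalized values too (0.51). Bmpr1a was called at 12, 24 and 48 h, and at 48 h it stood at 99.1, 99.1 and 101 CPM against 63.2, 64.9 and 66.1 CPM (0.63 ± 0.10, adjusted p = 2.0e-06).

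Markers of primitive endoderm also differed between the Ezh2 knockout and 1A wild type. Of 12 such markers 11 were called higher at 0 h, 7 at 24 h and 1 at 96 h, against 11.9%, 15.6% and 6.56% of all tested genes. Their summed level at 24 h was 878 to 1060.2 CPM in the knockout and 642 to 758 CPM in 1A wild type. At 96 h the sum was lower in the knockout, at 798 to 813 CPM against 889 to 1000.2 CPM. Of 10 trophoblast markers 3 were higher and 4 lower at 24 h, with summed levels of 363 to 387 and 478 to 555 CPM. Of 8 embryonic stem cell markers 3 were higher and 1 lower at 24 h. At that time 15.6% of all tested genes were called higher and 13.7% lower. The part of these markers in the results on the Ezh2 knockout was not tested. In bulk RNA, fewer cells with a transcript and less of it per cell cannot be told apart.

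The Eed knockout stood out by high Id2 and Id3. Id2 stood at 138, 163 and 121 CPM at 0 h against 34.6, 33.5 and 36.6 CPM in 1A wild type (2.01 ± 0.16, adjusted p = 1.4e-15). At 96 h it stood at 52.4, 62.7 and 49.4 CPM against 7.80, 8.39 and 10.5 CPM (2.63 ± 0.20, adjusted p = 1.4e-16), and at all 5 times every knockout library lay above every library of the other 3 lines. Id3 stood at 85.8, 98.4 and 83.1 CPM at 0 h against 44.7, 46.4 and 37.4 CPM (1.05 ± 0.13, adjusted p = 4.3e-09) and was also called higher at all 5 times. Id1 did not follow: at 0 h it stood at 79.96, 84.7 and 73.6 CPM against 93.6, 97.7 and 81.4 CPM (-0.20 ± 0.15, adjusted p = 0.29), and with all libraries it was called at 48 h (0.87 ± 0.22, adjusted p = 6.7e-04), where it was 16.2, 24.7 and 20.2 CPM. Those 48 h libraries overlapped the ones of V19 wild type (17.003, 24.4 and 15.99 CPM). At 12 h Id1 was -0.35 ± 0.16 (adjusted p = 0.052) and was called lower without knockout replicate 1 (-0.64), without 1A wild type replicate 1 (-0.43), without the deviating libraries (-0.39) and under either other filter (-0.38 with none, -0.36 at a mean of at least 1 CPM). At 24 h it was -0.18 ± 0.17 and was called lower without 1A wild type replicate 1 (-0.39) and without the deviating libraries (-0.40).

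Smad6, Bmpr1a and Bmp7 were likewise higher in the Eed knockout at 0 h. Smad6 stood at 39.4, 36.2 and 28.7 CPM (1.60 ± 0.16, adjusted p = 6.3e-12), Bmpr1a at 91.1, 97.2 and 104 CPM (0.49 ± 0.10, adjusted p = 2.8e-05) and Bmp7 at 4.41, 3.66 and 5.23 CPM (1.62 ± 0.30, adjusted p = 9.4e-06), all above the 1A wild type libraries. At 96 h Bmpr1a was called (0.23 ± 0.09), which ended without 1A wild type replicate 2 or 3 or knockout replicate 1 or 3 (0.21, 0.20, 0.20 and 0.21). At 24 h Smad6 stood at 0.46 ± 0.17, which was not called without 1A wild type replicate 1 or 3 or knockout replicate 1 (0.42, 0.43 and 0.33). Bmp4 was lower at 24 h (-0.64 ± 0.23), which was not called without 1A wild type replicate 1 or knockout replicate 2 (-0.54 and -0.42). That call also ended with no filter (-0.61), with only the groups compared (-0.65), without the deviating libraries (-0.54) and in the RUV-normalized values (-0.29). Bmp4 was not called at 0 h (0.21 ± 0.11, adjusted p = 0.11). It was called higher at 0 h with only the groups compared (0.24), without the deviating libraries (0.23) and without knockout replicate 3 (0.29). In all, 5 of the 8 genes were called at 0 h, each higher, against 49.6% of all tested genes (26.4% higher). The counts in either direction at 12, 24, 48 and 96 h were 5, 5, 5 and 6 against 54.7%, 62.8%, 66% and 55.3%. So at 24 and 48 h that share of the 8 genes was near or below that of all genes. All of these calls but 1 at 24 h were higher, while 28.6%, 33.6%, 36.2% and 30.9% of all genes were called higher.

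These Eed results depend on the normalization, and markers of other cell types move with them. In the authors' RUV-normalized values the 0 h differences were 0.20 for Id2, 0.18 for Id3 and 0.13 for Bmpr1a, none called by limma, while Bmp7 (0.95) and Smad6 (1.23) were still called. At 24 and 48 h Id2 turned to -0.73 and -1.04 there (adjusted p = 0.015 and 1.2e-04). In the same values the difference of Eed itself at 0 h was -0.61, against -3.94 in the counts. Summed primitive endoderm markers were at 5864 to 6207 CPM at 0 h in the knockout and 752 to 826 CPM in 1A wild type, with 12 of 12 called higher at every time, and at 2398 to 2683 and 889 to 1000.2 CPM at 96 h. Summed trophoblast markers were at 1701 to 2235 and 284 to 337 CPM at 0 h, with 10 of 10 called higher, and at 2999 to 3120.2 and 359.6 to 442 CPM at 96 h. Mesoderm markers summed to 46.000 to 48.5 and 9.15 to 11.8 CPM at 0 h, with T at 0 in every library, and fibroblast and feeder markers to 32.4 to 35.7 and 10.95 to 16.99 CPM, with Postn and Lum at 0 in 1A wild type. Of the 8 embryonic stem cell markers 2 were higher and 4 lower at 0 h, and all 8 were lower at 24 h. Of all tested genes 23.3% were called lower at 0 h and 29.2% at 24 h. From 0 to 96 h, 26.4% to 36.2% of all tested genes were called higher. The part of these cell types in the Eed results was not tested.

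**Figure D4:**
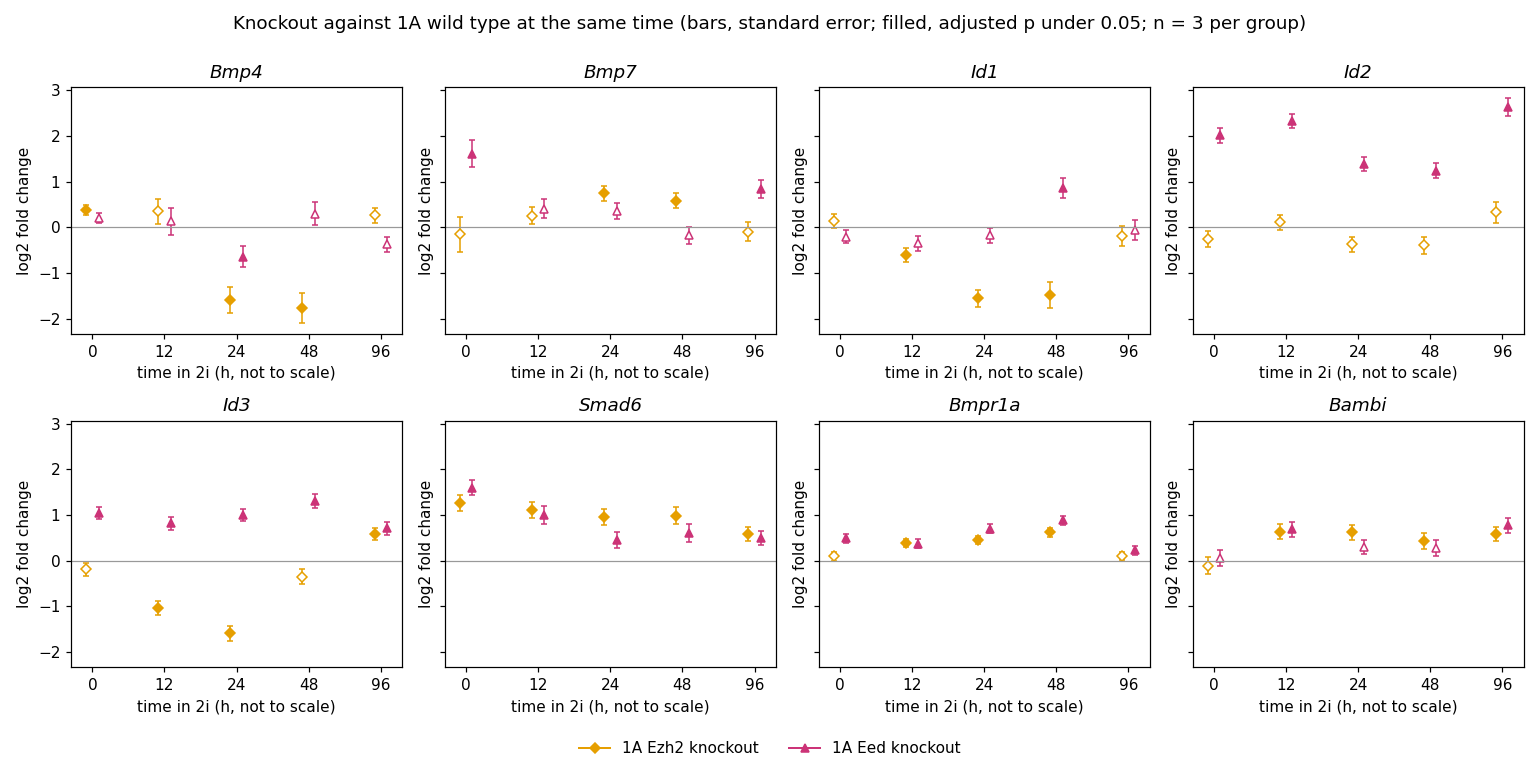
Log2 fold change of each knockout against 1A wild type at the same time (vertical axis, 1 scale for all panels; counts, edgeR) with SE bars and filled symbols for an adjusted p under 0.05. The Ezh2 knockout lies below 0 for Bmp4, Id1 and Id3 at 24 h, and the Eed knockout lies above 0 for Id2 and Id3 at all times, an elevation of Id2 and Id3 that is not kept in the RUV-normalized values.

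Set directly against each other, the knockouts differed in 5 of the 8 genes at 0 h, all higher in the Eed knockout. Of all tested genes 45.3% were called, 23.6% higher. Id2 differed by 2.26 ± 0.16 (adjusted p = 2.9e-17) and Id3 by 1.23 ± 0.13 (adjusted p = 5.7e-11). In the RUV-normalized values 2 of the 8 were called at 0 h. The Smad6 call (0.34 ± 0.14, adjusted p = 0.049) ended in 5 of 6 omissions of 1 library. At 96 h 3 of 8 were called against 52.1%, with Bmp4 lower (-0.63 ± 0.16, adjusted p = 8.8e-04) and Id2 and Bmp7 higher (2.30 ± 0.18 and 0.93 ± 0.19). The Id3 difference at 96 h was 0.12 ± 0.13 (adjusted p = 0.46). In the RUV-normalized values all 3 of these 96 h calls ended (Bmp4 -0.14, Id2 0.28 and Bmp7 0.34, adjusted p = 0.80, 0.41 and 0.37 by limma). Called there instead were Id3, lower in the Eed knockout (-0.84, adjusted p = 1.8e-04), Bmpr1a, also lower (-0.26), and Id1, higher (0.61).

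The responses to 2i were compared between lines by testing the difference of the 2 changes. At 12 h, when Id1 and Id3 had changed little in 1A wild type (-0.10 and -0.23), both had fallen in the Ezh2 knockout (-0.84 and -1.08). With only the 2 groups in the model, the Id3 fall in 1A wild type was called (-0.25, adjusted p = 0.027 by edgeR). Id3 was also called lower at 12 h in the Eed knockout and in V19 wild type. In V19 it went from 43.9, 54.3 and 55.8 CPM at 0 h to 28.6, 32.8 and 34.5 CPM. The difference between the Ezh2 knockout and 1A wild type was -0.75 ± 0.21 for Id1 (adjusted p = 0.040) and -0.85 ± 0.20 for Id3 (adjusted p = 0.010). These were 2 of 8 genes against 2.91% of all tested genes. For Id3 the call ended without Ezh2 knockout 0 h replicate 2 (-0.75, adjusted p = 0.054). The Id1 call ended in 9 of 12 omissions of 1 library: each 0 h replicate of 1A wild type, Ezh2 knockout 0 h replicates 1 and 2, and replicates 2 and 3 of each line at 12 h, with values between -0.80 and -0.65. It also ended in the RUV-normalized values (-0.72, adjusted p = 0.18 by limma). At 96 h Id3 differed by 0.78 ± 0.20 (adjusted p = 0.0041) and Smad6 by -0.68 ± 0.23 (adjusted p = 0.043), 2 of 8 against 12.2%. The Smad6 call ended without any of the 12 libraries but 1A wild type 0 h replicate 2 and Ezh2 knockout 96 h replicate 2, with values between -0.71 and -0.58.

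For the Eed knockout 1 of 8 genes responded differently at 12 h, against 11.2% of all tested genes. This was Bmp7, whose rise was smaller (0.73 against 1.94, difference -1.21 ± 0.37, adjusted p = 0.023), and the call ended in 6 of 12 omissions of 1 library. These were 1A wild type 0 h replicates 1 and 2, 1A wild type 12 h replicates 2 and 3, Eed knockout 0 h replicate 3 and Eed knockout 12 h replicate 2, with values between -1.15 and -1.05. At 96 h 3 of 8 were called against 27.3%. Smad6 fell in the knockout (-0.55) and rose in 1A wild type (0.55), a difference of -1.10 ± 0.23 (adjusted p = 1.8e-04) that was kept without any 1 library. The other calls were Bambi (0.71 ± 0.24, adjusted p = 0.022) and Bmp4 (-0.58 ± 0.20, adjusted p = 0.027), which ended in 3 and 7 of 12 omissions. For Bambi these were replicate 1 of 1A wild type at 0 h and 96 h and Eed knockout 0 h replicate 1 (0.57, 0.68 and 0.64). For Bmp4 they were 1A wild type 0 h replicate 1, Eed knockout 0 h replicates 1 and 2, and replicates 2 and 3 of both lines at 96 h, with values between -0.58 and -0.52. In the RUV-normalized values neither Bambi (0.60, adjusted p = 0.085 by limma) nor Bmp4 (-0.52, adjusted p = 0.35 by limma) was called. With no filter the Bmp4 call ended as well (-0.57, adjusted p = 0.12 by edgeR).

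Between the 2 wild types, Id2 was the only one of the 8 genes called at 0 h, against 10.5% of all tested genes. It stood at 20.7, 25.4 and 15.8 CPM in V19 and 34.6, 33.5 and 36.6 CPM in 1A, without overlap (-0.75 ± 0.18, adjusted p = 0.0031). At 96 h none of the 8 was called by edgeR against 7.45%, while 1 was called by DESeq2, Id2 (-0.79 ± 0.28, edgeR adjusted p = 0.076, DESeq2 adjusted p = 0.028). At an unadjusted p under 0.05 the count at 96 h was 2 of 8, Id2 and Id3. By edgeR and by DESeq2, 0 of the 8 were called for a different response to 2i in V19 at 12 h or 96 h, with 1 at an unadjusted p under 0.05 at each time (Id3), against 0.119% and 1.68% of all tested genes.

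Ordered by level over the 20 groups, the 4 groups at 0 h were the highest for Bmp4, from the Ezh2 knockout (60.6 ± 3.78 CPM, mean ± SD, n = 3) through V19 wild type and the Eed knockout to 1A wild type (46.7 ± 2.62 CPM). Neighbours in that order overlapped, while 1A wild type overlapped neither the Ezh2 knockout nor V19. The Ezh2 knockout at 48 h was last (0.952 ± 0.524 CPM) and overlapped its own 24 h group. For Bmp7 the order was led by V19 wild type and the Ezh2 knockout at 48 h (15.7 ± 1.87 and 15.5 ± 1.18 CPM, overlapping), and both wild types and the Ezh2 knockout at 0 h were last and overlapped. For Id2 the 5 Eed knockout groups were the top 5, from 155 ± 10.1 CPM at 12 h to 54.8 ± 6.97 CPM at 96 h, and the 96 h groups of the other 3 lines were the bottom 3. For Id1 the bottom group, the Ezh2 knockout at 48 h (3.98 ± 0.674 CPM), did not overlap the next. For Id3 the top group was the Eed knockout at 0 h (89.1 ± 8.21 CPM) and the bottom group the Ezh2 knockout at 24 h (9.69 ± 1.25 CPM), and neither overlapped its neighbour. For Smad6 the Eed knockout at 0 h (34.8 ± 5.48 CPM) was top and 1A wild type at 12 h (6.99 ± 1.36 CPM) bottom, also without overlap with the neighbour. The order for Bmpr1a ran from the Eed knockout at 48 h (119.5 ± 8.06 CPM) to 1A wild type at 48 h (64.8 ± 1.46 CPM), and for Bambi from the Eed knockout at 96 h (25.9 ± 0.333 CPM) to V19 wild type at 0 h (10.6 ± 1.75 CPM), with most neighbours overlapping. Per kilobase of exon, the order of the genes in 1A wild type at 0 h was Id1, Id3, Id2, Bmp4, Bmpr1a, Smad6, Bambi and Bmp7 (78.3, 44.9, 27.4, 22.7, 11.4, 3.75, 2.13 and 0.411 CPM per kb). At 96 h it was Id3, Bmpr1a, Id1, Id2, Smad6, Bmp4, Bambi and Bmp7 (43.9, 13.7, 11.3, 6.98, 5.58, 4.54, 2.67 and 1.47 CPM per kb).

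Of the other genes of the pathway, 49 were listed by role (ligands, receptors and co-receptors, SMADs, inhibitors, secreted antagonists, targets and E proteins), and 39 of them were tested. In 1A wild type 8 were called higher and 10 lower at 12 h (all genes, 20% and 20.8%), with a median log2 fold change of -0.05 against 0.02 for all genes. The 3 rises with the smallest p were Gata2 (4.75 to 14.1 CPM, 1.51 ± 0.16), a transcription factor, Msx2 (2.00 to 6.32 CPM, 1.59 ± 0.25), a homeobox gene known as a BMP target, and Id4. The 3 strongest falls by p were the activin type II receptor Acvr2b (90.9 to 50.9 CPM, -0.84 ± 0.13), the co-receptor Eng (14.7 to 7.88 CPM, -0.91 ± 0.17) and the ligand Bmp8b (7.32 to 2.78 CPM, -1.40 ± 0.27). Of the 14 listed target genes, 13 were tested, with 3 called higher (Gata2, Msx2 and Id4), 2 lower (Smad6 and Smad7) and 8 not called, among them Id1, Id2 and Id3. Smad7, an inhibitory SMAD named here after its values were seen, was 55.5 CPM at 0 h and 30.7 CPM at 12 h (-0.84 ± 0.21, adjusted p = 7.8e-04).

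At 96 h in 1A wild type 15 of the 39 were higher and 6 lower (all genes, 25.1% and 23.5%), with a median of 0.34 against 0.02 for all genes. The leading rises were Tob1 (16.9 to 54.2 CPM, 1.67 ± 0.11), an inhibitor of BMP SMADs, and Fstl1 (69.6 to 155 CPM, 1.16 ± 0.08) and Fst (5.24 to 31.99 CPM, 2.52 ± 0.19), secreted antagonists. The leading falls were Ppm1a (187 to 118 CPM, -0.67 ± 0.07), a phosphatase of SMADs, Bmp8b (7.32 to 1.24 CPM, -2.56 ± 0.33) and Acvr2b (90.9 to 58.2 CPM, -0.64 ± 0.13).

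In the Ezh2 knockout at 0 h 6 of the 39 were higher than in 1A wild type and 3 lower (all genes, 11.9% and 10.9%). Dusp9, a MAP kinase phosphatase induced by BMP4 in embryonic stem cells, led the rises (133 to 252 CPM, 0.92 ± 0.11), followed by Fstl1 (0.48 ± 0.08) and the co-receptor Rgma (1.07 ± 0.24). Lower were Ppm1a (-0.33 ± 0.07), the transcriptional repressor Hey1 (-1.01 ± 0.28) and Acvr2b (-0.38 ± 0.12). In the Eed knockout at 0 h 20 were higher and 6 lower (all genes, 26.4% and 23.3%), with a median of 0.45 against 0.00 for all genes. Dusp9 (133 to 631 CPM, 2.24 ± 0.11), Gata2 (4.75 to 31.2 CPM, 2.66 ± 0.14) and Msx2 (2.00 to 23.04 CPM, 3.46 ± 0.20) led the rises. The E proteins Tcf3 (-0.58 ± 0.07) and Tcf4 (-0.95 ± 0.14), partners of the Id proteins, and the ligand Gdf3 (-0.84 ± 0.11) were lower.

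The genes whose pattern over the 20 group means was most like that of each member are given as a description, ranked among 10435 genes by Pearson's r of log2 CPM. Utf1 was most like Bmp4 (r = 0.971), Cdkn1a most like Bmp7 (0.942) and Armcx5 most like Id1 (0.929), followed by Parvb and Soga3 for Bmp4 (0.96 and 0.958), Aig1 and Ttyh2 for Bmp7 (0.94 and 0.939) and Insm1 and Hps3 for Id1 (0.918 and 0.906). Cldn7, Pth1r and Cln6 were most like Id2 (0.948, 0.941 and 0.934), and Sdc1, Madd and Baiap2 most like Id3 (0.856, 0.833 and 0.829). Ckap4, Nuak2 and Grik3 led for Smad6 (0.886, 0.872 and 0.855), Glce, Kif1b and Zfp800 for Bmpr1a (0.954, 0.941 and 0.94), and Tlr2, H1f0 and Bdh1 for Bambi (0.923, 0.905 and 0.871). Among the Id genes the patterns were less alike, with r of 0.316 between Id1 and Id2, 0.295 between Id1 and Id3 and 0.408 between Id2 and Id3, and r between Bmp4 and Id1 was 0.439.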

How the data were processed

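Poly(A) libraries were read as 75-base single reads in 2 runs that were merged, per the labels' protocols. The read counts per gene were made by the authors with STAR 2.7.10b and featureCounts 2.0.3 on GRCm39, per the submitters' processing notes, which also list MultiQC 1.14 and DESeq2. The library kit does not mark strand. The authors also deposited RUV-normalized values rounded to whole numbers, treated here as a score, with the settings not given in the sources used here. Both tables cover the 60 libraries, and each column was matched to its library by name.

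From the counts, libraries were scaled by TMM and genes filtered with filterByExpr by group (minimum count 10, minimum total 15). One edgeR 4.0.16 quasi-likelihood model (R 4.3.3) over the 20 groups, with 40 residual degrees of freedom, gave every comparison by contrasts, with Benjamini-Hochberg adjustment over 15083 genes. SE is the absolute log2 fold change divided by the square root of F. Levels per kilobase use the deposited exon lengths. Where nothing says that replicates came from separate cultures beyond the label "biological replicate", p-values measure only the spread between these libraries. Comparisons that share 0 h or 1A wild type libraries are not independent of each other. Alternatives were RLE size factors and DESeq2 1.42.0, other filters, only the groups compared, a replicate block, each library left out, and limma 3.58.1 on log2(RUV value + 1). An alternative without the 7 deviating libraries was chosen after seeing the data.

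The members and the pathway and marker lists were chosen with earlier results of these data known. Other genes named are the up to 3 called pathway genes per direction with the smallest adjusted p in 4 comparisons, Id4, and the 3 genes of highest correlation with each member among genes with a mean of at least 5 CPM (log2 CPM, prior count 2), leaving out predicted genes, RIKEN symbols and pseudogenes. Promoters come from RefSeq for GRCm38.p6, so no promoter coordinate is set beside the GRCm39 gene coordinates.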

Additional observations from a re-analysis of the deposited data

Results flagged for a closer look

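Of 48 tests of a gene's 2i response in another line against its response in 1A wild type, 8 passed the threshold (edgeR, Benjamini-Hochberg over all genes). Over all tested genes the share called was 2.91% at 12 h and 12.2% at 96 h for the Ezh2 knockout, 11.2% and 27.3% for the Eed knockout, and 0.119% and 1.68% for V19 wild type. In the Ezh2 knockout at 12 h these were Id1 (-0.75) and Id3 (-0.85), which had fallen there. Neither was called in 1A wild type with all groups in the model. Against its own 0 h, Id3 was also called lower at 12 h in V19 wild type and the Eed knockout. At 96 h the Ezh2 knockout differed in Id3 (0.78), above its own 0 h level where 1A wild type was back at its 0 h level, and in Smad6 (-0.68), which was called higher in 1A wild type and not called in the knockout. In the Eed knockout the rise of Bmp7 at 12 h was smaller (-1.21). At 96 h that line differed in Bmp4 (-0.58), which stayed lower, in Smad6 (-1.10), which fell where it rose in 1A wild type, and in Bambi (0.71), which rose more. These Bmp4 and Bambi calls were not kept in the RUV-normalized values. Nor was the 12 h Id1 call of the Ezh2 knockout (-0.72, adjusted p = 0.18 by limma). Of these 8, Id3 at 96 h in the Ezh2 knockout and Smad6 at 96 h in the Eed knockout kept the call in every omission of 1 library.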

How the results depend on the processing

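Each log2 fold change of a member was recomputed under 8 alternatives and with each library left out, and the cause of every change below was not tested. Of 288 member results, 285 kept direction and side of the threshold with RLE size factors, 285 with DESeq2, 284 at a mean of at least 1 CPM, 274 with no filter, 270 without the 7 deviating libraries, 262 with only the groups compared and 232 in the RUV-normalized values. All 11 reversals were in those RUV values. Between the Eed knockout and 1A wild type they were Id3 at 12, 24 and 96 h (-0.11, -0.065 and -0.34), Id2 at 24 and 48 h (-0.73 and -1.04), Smad6 at 24 and 48 h (-0.064 and -0.011) and Bmpr1a at 96 h (-0.22). Against the Ezh2 knockout they were Smad6 at 0 h (-0.035) and Id3 and Bmpr1a at 96 h (-0.84 and -0.26). Called members in the RUV values moved from 5 to 2 between the Eed knockout and 1A wild type at 0 h, from 5 to 1 at 12 and at 24 h and from 6 to 0 at 96 h, from 5 to 2 in the Eed against the Ezh2 knockout at 0 h, from 2 to 1 and from 3 to 1 in the Ezh2 knockout at 0 and 96 h, and from 2 to 1 for the 12 h response of that line against 1A wild type. The call left between the Eed knockout and 1A wild type at 24 h was Id2, turned to lower. In that comparison at 48 h, Bmp4 became called higher (0.75, adjusted p = 0.030 by limma) and Bmp7 lower (-1.04, adjusted p = 5.9e-04 by limma). There Id2 was called lower, and Id3 and Smad6 were no longer called.

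For V19 against 1A wild type at 0 h, 1 call became 2 with no filter, 3 with only the groups compared, 0 in the RUV values and 2 without the deviating libraries. At 96 h 0 became 1 with no filter, with DESeq2, in the RUV values and without the deviating libraries, and 2 with only the groups compared. For the Eed response against 1A wild type, 1 call at 12 h became 0 with no filter or only the groups compared and 2 without the deviating libraries, and 3 at 96 h became 6 with only the groups compared and 5 without the deviating libraries. For the V19 response at 96 h, 0 became 1 with only the groups compared. With 1 library left out, called members ranged from 1 to 2 for the Ezh2 knockout against 1A wild type at 0 h, 0 to 2 and 1 to 3 for its 12 and 96 h responses, 0 to 2 and 1 to 3 for those of the Eed knockout, and 5 to 7 for the Eed knockout at 24 h against its 0 h (8 with all).

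The labels' replicate numbers gave no pairing that held through a comparison: in 0 of 30 comparisons did every same-numbered pair correlate over 0.1 (-0.149 to 0.411, median 0.00357). Single pairs went higher at 24 h, with 0.411 and 0.34 for replicates 1 and 3 of the Eed knockout and 1A wild type. For replicates 1 and 2 of the Ezh2 knockout and 1A wild type they were 0.265 and 0.203. A rule on every pair cannot exclude pairing of some libraries. With the replicate block, 286 of 288 results were as without it. Id1 at 12 h was called in the Eed knockout against 1A wild type (-0.35, adjusted p = 0.042 by edgeR) and Smad6 in the Eed against the Ezh2 knockout at 0 h was not (0.34, adjusted p = 0.055). Bmp4 in 2i and Bmp7 at 0 h rest on few reads, which limits their precision there.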
